A study of Homo sapiens with 24 samples.

Results

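The very long mRNAs of 10 genes were followed in U2OS cells through soluble and insoluble cytoplasmic fractions: AHNAK, AHNAK2, PLEC, MACF1, MAP1A, DYNC1H1, TRIO, HUWE1, ZZEF1 and MDN1. They are 10 of the 60308 genes in the exon count table, and all 10 were among the 17666 genes tested on exon counts and the 17406 tested on intron counts. They were chosen by measured values, the exon and intron ratios of insoluble over soluble level in each treatment, so these ratios and their differences between treatments are described here without a test. The tests below compare treatments within one fraction. That contrast did not enter the choice, but its libraries did, since every ratio is built from them. The tests are therefore not independent of the choice.

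U2OS is a human osteosarcoma cell line. Cells of the Ctrl group received 0.12% DMSO for 2 h, the NaAsO2 group 500 µM sodium arsenite for 60 min, the RK-33 group 6 µM RK-33 (an inhibitor of the ATPase of the RNA helicase DDX3) with a pre-treatment of 1 h, and the Combo group RK-33 followed by NaAsO2 at those doses. Each lysate was cleared of nuclei at low speed and then spun hard, which left a soluble supernatant and an insoluble pellet in which RNP granules are enriched. The 4 treatments and 2 fractions gave 24 libraries in 8 groups of 3. The pellet is not pure granules, since whatever sediments at that speed is in it. All 7 mesenchymal markers had reads, with summed levels of 2934 to 9081 CPM (counts scaled to library size), although COL1A2 did not exceed 1.84 CPM. Summed markers of leukocytes, epithelium, liver, glia and endothelium did not exceed 12.5 CPM.

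A very long mRNA carries many ribosomes and offers many binding sites for proteins and other RNAs. When arsenite blocks translation initiation, ribosomes run off and the freed mRNAs can gather in stress granules, cytoplasmic condensates in which long and poorly translated mRNAs are known to be favoured. The 10 mRNAs encode large proteins of the cytoskeleton and membrane cortex (AHNAK, AHNAK2, PLEC, MACF1, MAP1A), a microtubule motor (DYNC1H1), a signalling exchange factor (TRIO), a ubiquitin ligase (HUWE1), a zinc-finger protein (ZZEF1) and a ribosome assembly factor (MDN1).

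Libraries held 10968059 to 19799530 counts over exons and introns, and the members 272 to 383066 exon counts each. Replicate 3 of the NaAsO2 insoluble group stood apart. Its correlation with the other libraries of its group over genes of at least 10 CPM was 0.851 and 0.873, against 0.962 or more for every other pair of replicates. The cytoplasmic RNA RN7SL1, which took 7.51% to 15.5% of exon counts in soluble libraries and 0.426% to 1.23% in the other insoluble libraries, took 5.79% there. Member values that turn on this library are also given without it.

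Of the members, 3 had a row among the 394 back-splice sites of the circular RNA table, and at AHNAK and AHNAK2 the sequence of the back-splice was found in the linear mRNA as well. A back-splice read joins the end of a stretch of RNA to its own beginning, and is counted as a sign of a circle. The AHNAK site (GRCh38 chr11:62528540-62528740, minus strand, 201 bases) and the AHNAK2 site (chr14:104945689-104946183, minus strand, 495 bases) both lay inside the one giant exon of their gene, exon 5 of AHNAK and exon 7 of AHNAK2 in the canonical transcripts, with no end at an exon edge. The TRIO site (chr5:14316513-14336727, plus strand, 20215 bases) ran from the edge of exon 9 to the edge of exon 11. The sequences below are shown because they separate these cases. In each, lower case gives the last 15 bases before the junction and capitals mark the 15 bases after it. The back-splice line is the sequence a circle would give, and the linear line is the genome read straight on past the end of the site.
AHNAK back-splice: agtgtgggtgtggagGTGCCTGATGTTGAG
AHNAK linear: agtgtgggtgtggagGTGCCTGATGTTGAG
AHNAK2 back-splice: ggccccaagctggacCTGAAAGGCCCGAAG
AHNAK2 linear: ggccccaagctggacCTGAAAGGCCCGAAG
TRIO back-splice: acccatgtgaaagagGTCAGCCAAGATGGG
TRIO linear: acccatgtgaaagagGTAAGGTGCCAGGAG

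The AHNAK lines were identical over all 30 bases, as were those of AHNAK2, whereas the TRIO lines parted after the junction. The ends of the AHNAK site shared an exact direct repeat of 62 bases, and the site as a whole was 95.02% identical to the stretch of the same length on its higher-coordinate side. For AHNAK2 the exact repeat was 36 bases and the identity 95.6%. For TRIO the repeat was 4 bases and the identity 25.5%. Exact repeats of at least 30 bases were found at 4 of the 394 sites (1.02%), those of AHNAK and AHNAK2 among them. The part of a read that lies inside such a repeat cannot tell a circle from the linear mRNA. Per the methods the reads were longer than the AHNAK and AHNAK2 repeats. A full read therefore reaches into flanks that are similar but not identical. Whether the back-splice reads came from linear mRNA was not tested.

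Back-splice reads at AHNAK and AHNAK2 were mostly in the pellet, as their linear reads were. Those at TRIO were mostly in the soluble fraction, unlike its linear reads. Over the 12 soluble libraries AHNAK had 2 back-splice and 2385 linear reads, a back-splice share of 0.0838% (95% Wilson interval 0.0230% to 0.305%), and over the 12 insoluble libraries 51 and 39269, a share of 0.130% (0.0987% to 0.170%). AHNAK2 had 1 and 110 reads in soluble libraries, a share of 0.901% (0.159% to 4.93%), and 43 and 2247 in insoluble ones, a share of 1.88% (1.40% to 2.52%). In both genes the intervals of the fractions overlapped. With only 2 and 1 soluble back-splice reads the soluble intervals are wide, so the overlap does not show that the shares are equal. TRIO had 70 back-splice and 1242 linear reads in soluble libraries, a share of 5.34% (4.24% to 6.69%), against 19 and 6980 in insoluble ones, 0.271% (0.174% to 0.424%). All 394 sites together had a share of 1.72% in soluble and 0.652% in insoluble libraries. A lower share in the pellet was thus not particular to TRIO. Intervals cover counting error only and pool libraries of all treatments. In single libraries, TRIO back-splice reads numbered 3, 6 and 6 in Ctrl soluble against 0, 0 and 2 in Ctrl insoluble, and 5, 6 and 6 in NaAsO2 soluble against 1, 2 and 3 in NaAsO2 insoluble. With RK-33 they were 8, 4 and 8 against 2, 0 and 1, and in the Combo group 11, 2 and 5 against 4, 1 and 3, where the fractions overlapped.

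In the pellet the 10 mRNAs together held 3.42% ± 0.20 of all exon counts in Ctrl (SD, n = 3), 4.07% ± 0.45 in NaAsO2, 3.95% ± 0.44 in RK-33 and 4.44% ± 0.59 in Combo, against 0.42% ± 0.06, 0.40% ± 0.03, 0.55% ± 0.08 and 0.63% ± 0.06 in the soluble fractions. Each of the 10 was higher in every insoluble than in every soluble library of its treatment. That held for 33.1% of all tested genes in Ctrl, 24.8% in NaAsO2, 35.4% in RK-33 and 27.8% in Combo, and for the members it is what they were picked for. Their median log2 fold change of insoluble over soluble was 2.51, 2.82, 2.49 and 2.49 in that order, with all-gene medians of -0.03, 0.03, -0.01 and 0.00. These are shares of a library, so a change of an mRNA cannot be told apart from an opposite change in the rest of the RNA. How much RNA a fraction held per cell is not known from them.

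**Figure D1:**
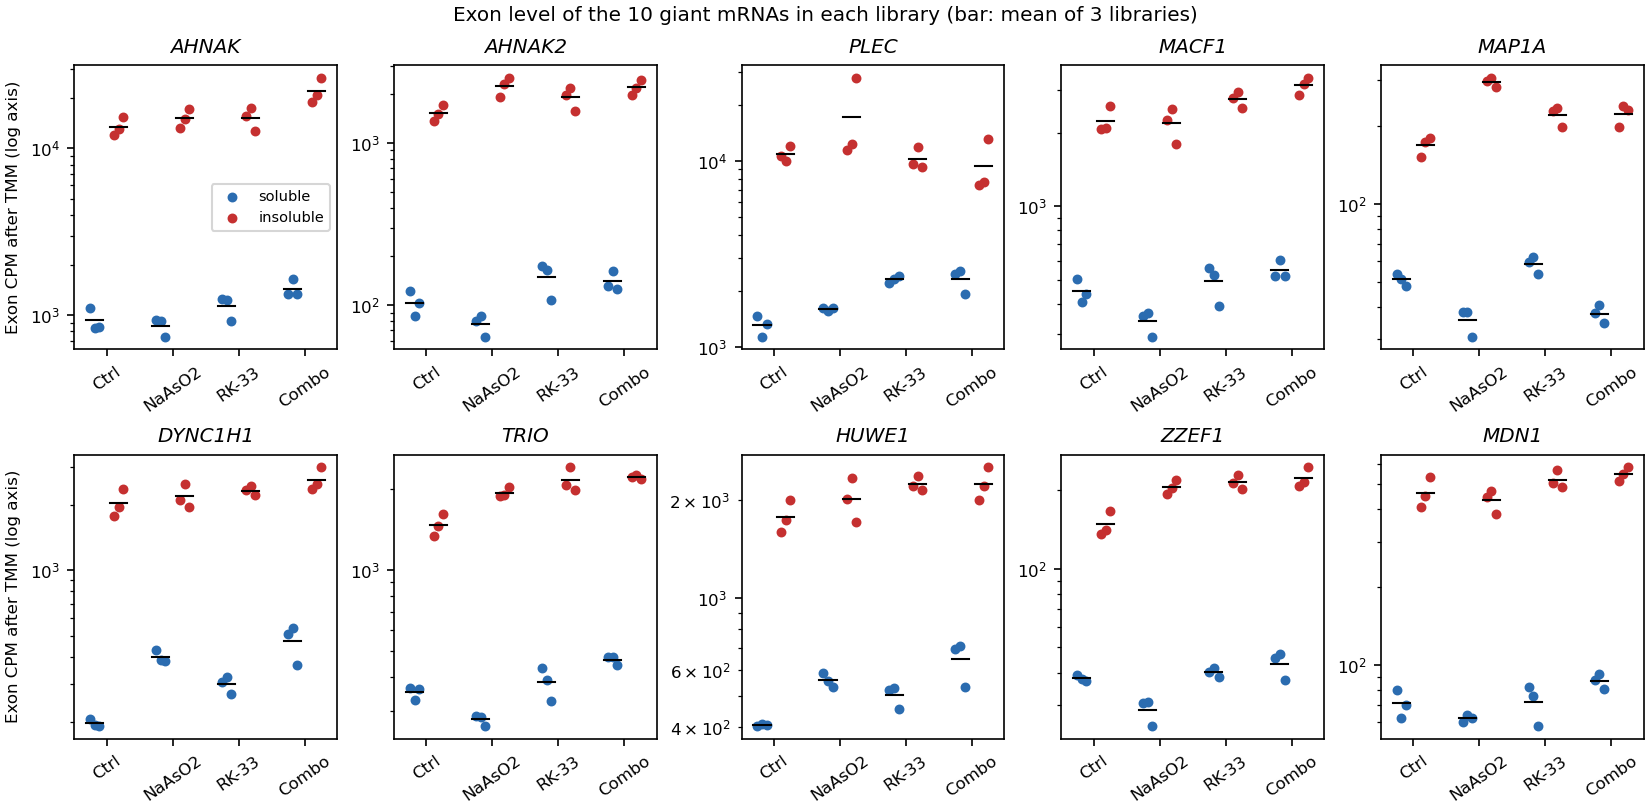
Exon level of each giant mRNA in each of the 24 libraries, in CPM after TMM normalisation on log axes, by treatment, with soluble libraries in blue, insoluble libraries in red and bars at the mean of 3 libraries. In every panel all red points lie above all blue points, and one PLEC library of the NaAsO2 insoluble group, at 27852 CPM, lies far above its other two.

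AHNAK and AHNAK2, paralogous scaffold proteins that are built largely of short repeats and sit under the plasma membrane, showed the largest excess. AHNAK (chr11:62433542-62556235, minus strand) stood at 1111, 841 and 845 CPM in the Ctrl soluble libraries and 12006, 13138 and 15344 CPM in the insoluble ones, 14.5-fold higher by the fit (log2 3.86 ± 0.19, SE). In NaAsO2 it stood at 932, 926 and 745 CPM against 13336, 14941 and 17196 CPM. No soluble library came near an insoluble one. AHNAK2 (chr14:104937244-104978374, minus strand) was at 122, 85.2 and 103 CPM in Ctrl soluble and 1358, 1512 and 1712 CPM in Ctrl insoluble libraries, 14.8-fold higher. Under NaAsO2 its soluble libraries held 80.0, 86.3 and 64.1 CPM and its insoluble libraries 1922, 2298 and 2507 CPM, 29.2-fold higher (log2 4.87 ± 0.21), the largest value of any member and treatment. With RK-33 and Combo it was 12.8-fold and 15.8-fold higher.

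PLEC and MACF1 encode plectin and a spectraplakin, cytolinkers that tie intermediate filaments, actin and microtubules together. PLEC (chr8:143915153-143976734, minus strand) was 8.34-fold higher in the pellet in Ctrl and 10.7-fold in NaAsO2, but 4.44-fold with RK-33 and 4.08-fold in Combo. Fitted without NaAsO2 insoluble replicate 3, the NaAsO2 value was 7.60-fold, below the 8.08-fold of Ctrl in that fit. Its soluble libraries held 1454, 1133 and 1318 CPM in Ctrl and 2200, 2326 and 2389 CPM with RK-33, without overlap. MACF1 (chr1:39081316-39487177, plus strand) varied less, from 4.97-fold in Ctrl to 6.44-fold in NaAsO2. MAP1A (chr15:43510958-43531620, plus strand), a structural microtubule-associated protein best known from neurons, was the least enriched member in Ctrl, at 3.30-fold, and stood at 8.25-fold in NaAsO2.

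DYNC1H1 (chr14:101964573-102056443, plus strand), the heavy chain of the motor that walks to microtubule minus ends, went the other way. Its excess was 10.4-fold in Ctrl (log2 3.37 ± 0.15), 7.81-fold with RK-33, 5.55-fold in Combo and 5.51-fold in NaAsO2. The insoluble libraries hardly differed, with 1787, 1952 and 2382 CPM in Ctrl and 2111, 2510 and 1965 CPM in NaAsO2, which overlapped, while the soluble ones held 205, 194 and 191 CPM against 429, 384 and 382 CPM, which did not.

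TRIO (chr5:14143342-14532128, plus strand), the signalling exchange factor, had a log2 ratio of 2.07 ± 0.11 in Ctrl and 2.80 ± 0.12, or 6.98-fold, in NaAsO2. ZZEF1 (chr17:4004445-4143030, minus strand), a zinc-finger and EF-hand protein, ran alongside with 3.87-fold and 7.09-fold. HUWE1 (chrX:53532096-53686728, minus strand), a ubiquitin ligase of the HECT class, ranged only from 3.45-fold in Combo to 4.46-fold with RK-33. MDN1 (chr6:89642498-89819794, minus strand), the AAA ATPase midasin that acts in maturation of the large ribosomal subunit, stayed between 6.32-fold in Combo and 7.22-fold with RK-33. Of the 10 members, 7 had their highest ratio in NaAsO2, and without NaAsO2 insoluble replicate 3 also 7, with MDN1 in place of PLEC.

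Differences of the log2 ratio between NaAsO2 and Ctrl, which share the rule's contrasts and are not tested, were 1.32 ± 0.16 (SE) for MAP1A, 0.98 ± 0.25 for AHNAK2, 0.87 ± 0.16 for ZZEF1, 0.73 ± 0.15 for TRIO and -0.91 ± 0.20 for DYNC1H1. The other 5 lay between -0.27 and 0.37. Between Combo and NaAsO2 they ranged from -1.40 ± 0.35 for PLEC to 0.01 ± 0.20 for DYNC1H1. These 2 sets share the NaAsO2 libraries, among them the library that stood apart, in which PLEC was 1.24 log2 units above the mean of the other two. Without it the PLEC difference was -0.94 between Combo and NaAsO2, and -0.09 in place of 0.36 between NaAsO2 and Ctrl. That fit kept Combo insoluble replicate 3, in which PLEC was also the highest of its group.

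**Figure D2:**
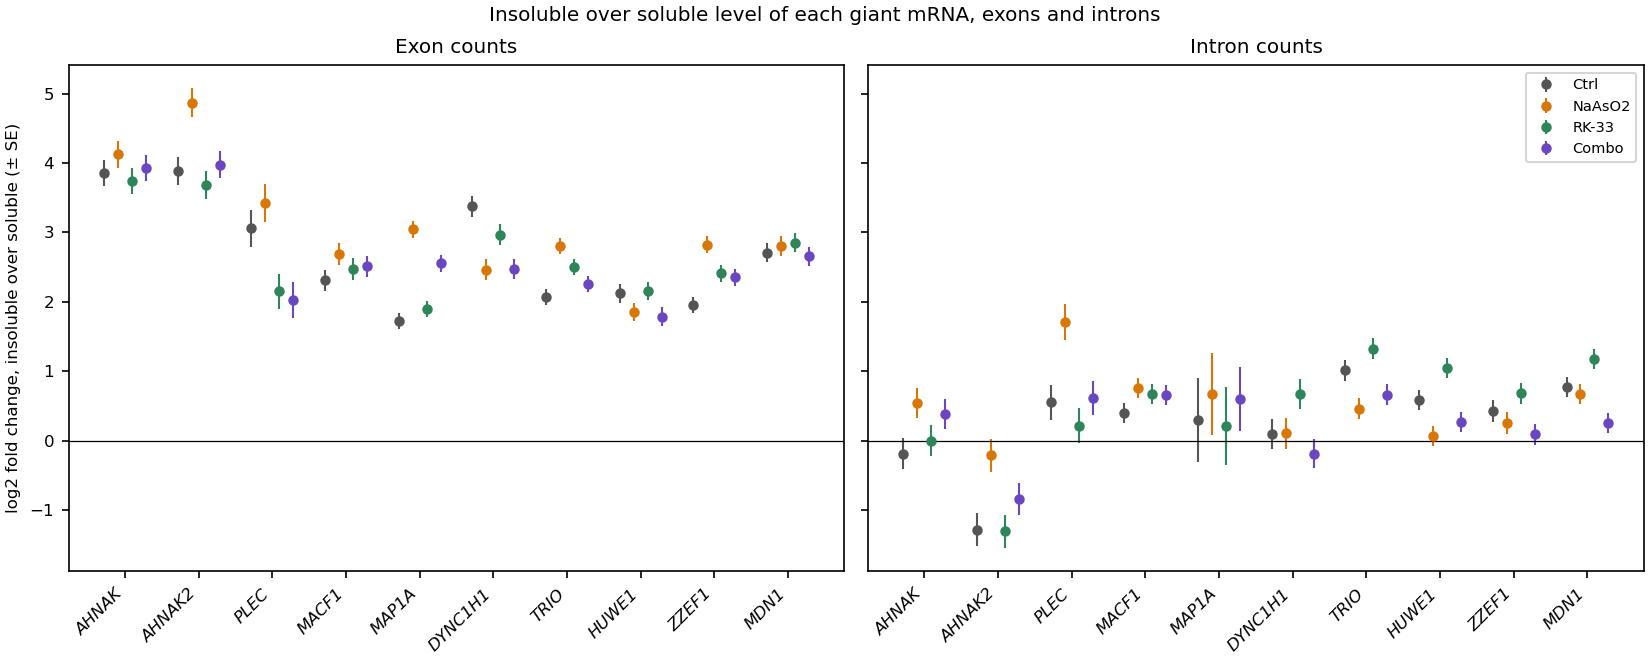
Log2 fold change of insoluble over soluble level with its SE for each giant mRNA and treatment, on exon counts (left) and intron counts (right) of 24 libraries. Exon values lie between 1.72 and 4.87, while intron values lie between -1.31 and 1.71.

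Per length, the order of the members changed with the fraction. In Ctrl soluble libraries PLEC and AHNAK stood highest, at 76.6 ± 9.5 and 47.9 ± 8.0 CPM per kilobase of deposited exon (SD, n = 3), and their ranges did not overlap. HUWE1 (23.4 ± 0.2) and TRIO (19.6 ± 1.1) followed, also without overlap. MACF1 (6.39 ± 0.71), AHNAK2 (5.51 ± 0.98), DYNC1H1 (5.06 ± 0.19) and MAP1A (4.79 ± 0.27) overlapped each with the next, then came MDN1 (3.80 ± 0.48) and ZZEF1 (2.40 ± 0.06). In the pellet AHNAK (693 ± 87) and PLEC (639 ± 60) overlapped at the top, HUWE1 (102 ± 12) came next just above the ranges of TRIO (82.3 ± 7.6) and AHNAK2 (81.3 ± 9.4), which overlapped each other, and ZZEF1 (9.29 ± 1.03) stayed last. The deposited length is the union of all annotated exons, 70573 bases for MACF1 where its canonical mRNA has 24340, so the MACF1 level is lower than it would be per canonical kilobase. The lengths also differ for DYNC1H1 (38874 and 19940), TRIO (17860 and 11460) and HUWE1 (17379 and 14731). The order above, that of HUWE1 and TRIO included, therefore holds per deposited kilobase only.

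Most genes with deposited exons at least as long as those of the shortest member had smaller ratios than the members. The deposited exon lengths were 10646 bases for MAP1A and 15888 to 70573 bases for the others, and the canonical mRNAs had 10266 bases (MAP1A) to 24340 bases (MACF1). MAP1A ranked only 618 by canonical mRNA length among tested genes, and 2065 genes that were no members had deposited exons at least as long as its own. The median log2 ratio of those 2065 genes was 0.51 in Ctrl, 0.52 in NaAsO2, 0.67 in RK-33 and 0.52 in Combo, far under the members' medians. Only 6.00% of them reached the lowest member in Ctrl, 6.78% in NaAsO2, 5.28% in RK-33 and 3.49% in Combo. The members were chosen by this ratio, so their place above these genes is what they were picked for. Over all genes the median ratio was higher in longer bins of canonical mRNA length from 1 to 2 kb (-0.38 in Ctrl and -0.44 in NaAsO2, 3434 genes) to 8 to 16 kb (0.56 and 0.82, 1228 genes). It did not follow length at the short end, where the 2234 genes under 1 kb stood at -0.32 and -0.41. The 106 genes of at least 16 kb stood above the 8 to 16 kb bin in Ctrl, at 0.66, but below it in NaAsO2, at 0.77. With RK-33 (0.98 against 0.79) and in Combo (0.83 against 0.72) they also stood above it. Spearman's rho across the 17405 genes with a canonical length was 0.297 in Ctrl and 0.370 in NaAsO2, a description over genes that share libraries. Among the 10194 of them with a mean of at least 10 CPM rho was higher, at 0.531 in Ctrl and 0.543 in NaAsO2. With RK-33 it was 0.650 and in Combo 0.634 among these genes. SMAD2 and ARIH1, with canonical mRNAs of 34626 and 21679 bases, stood at log2 -0.21 and 0.24 in Ctrl. They are examples chosen after their values were seen.

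Exon structure also varied within the group. A single exon made up 96.9% of the canonical AHNAK mRNA, 95.7% of AHNAK2 and 79.7% of MAP1A, but 8.93% of HUWE1 with its 84 exons and 9.18% of MDN1 with its 102.

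**Figure D3:**
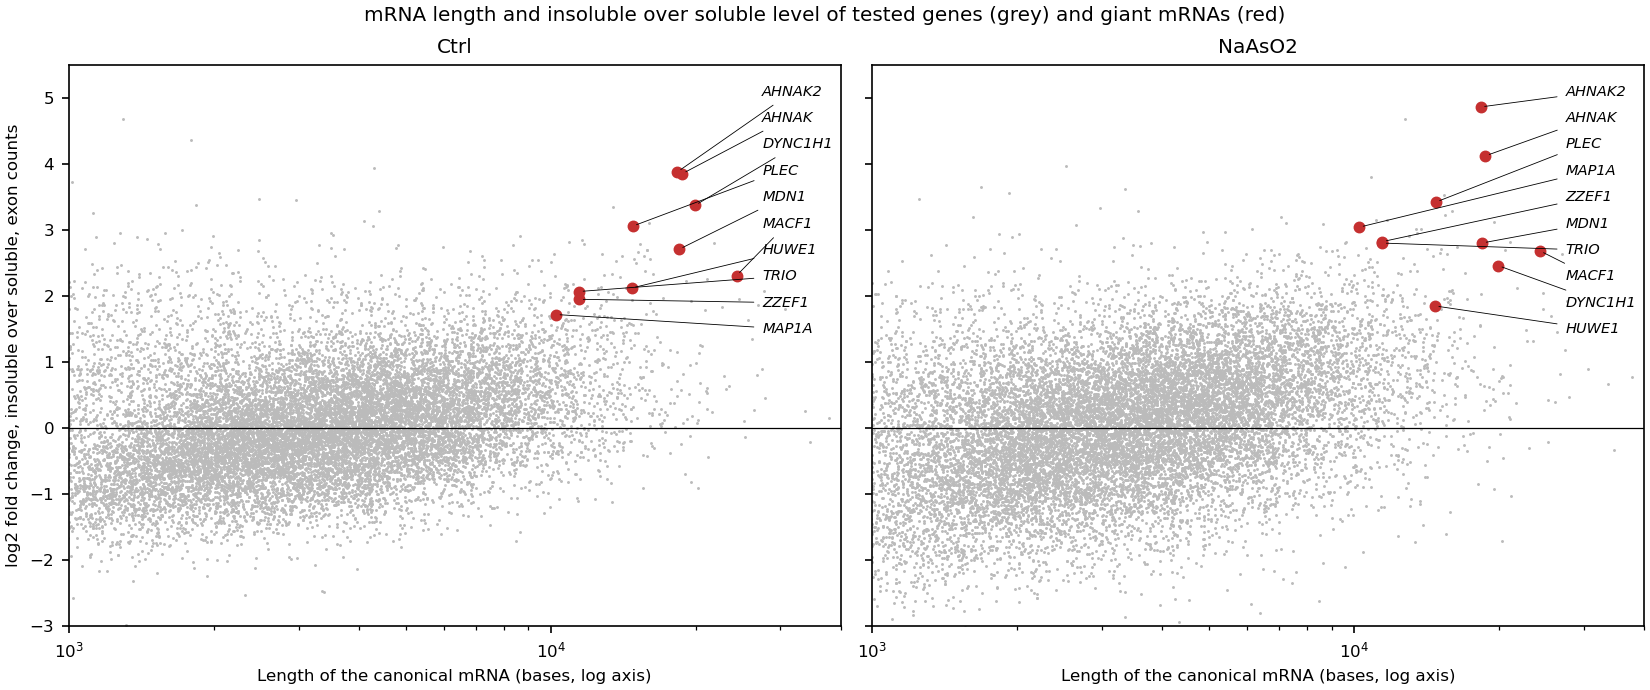
Canonical mRNA length in bases (log axis) against log2 fold change of insoluble over soluble exon level in Ctrl (left) and NaAsO2 (right), for tested genes in grey and the 10 giant mRNAs in red; 2239 and 2243 genes outside the axes are not drawn. Grey points drift upwards with length, and the red points lie on the upper rim of the cloud.

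Intron reads of the same genes showed little of the excess. The members' median log2 ratio on intron counts was 0.41 in Ctrl, 0.50 in NaAsO2, 0.67 in RK-33 and 0.33 in Combo, and the NaAsO2 median was 0.29 without insoluble replicate 3. The values depend on scaling: with library size alone in place of TMM the all-gene median fell by 0.26 to 0.46 in the 4 treatments, and the members' medians were 0.06 in Ctrl, 0.21 in RK-33 and 0.06 in Combo. The all-gene medians in Ctrl, RK-33 and Combo were -0.11, -0.09 and -0.03 with TMM. With library size alone they were -0.45, -0.55 and -0.29. The members' medians stayed above them under both scalings. AHNAK2 introns were lower in the pellet in Ctrl, at 24.2, 16.6 and 19.6 CPM against 46.1, 49.1 and 52.1 CPM in the soluble fraction, without overlap, a log2 ratio of -1.28 ± 0.24 where its exons had 3.88. Over the members, 6 were higher in the pellet without overlap in Ctrl, where 27.1% of 17406 genes were, and 1 was lower, where 32.4% were. In NaAsO2 these counts were 3 (14.2% of genes) and 0 (15.1%), in RK-33 6 (29%) and 1 (32.3%), and in Combo 4 (17.6%) and 1 (22.9%). AHNAK introns held 90.7, 84.3 and 73.3 CPM in the pellet and 98.8, 101 and 82.5 CPM in the soluble fraction, which overlapped. TRIO introns, at 5078, 5211 and 4982 CPM against 2492, 2439 and 2614 CPM, were the highest intron levels of the group in both fractions and did not overlap.

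The share of introns among a member's exon and intron counts, which needs no scaling between libraries, was lower in the pellet. In Ctrl every insoluble library lay below every soluble one for 8 members, in NaAsO2 for 9, in RK-33 for 8 and in Combo for all 10. Of the 15884 genes with both kinds of counts, 5.22% did so in Ctrl, 9.51% in NaAsO2, 3.91% in RK-33 and 14% in Combo, while the all-gene median share was higher in the pellet than in the soluble fraction in Ctrl (26.6% against 20.5%), NaAsO2 (18.1% against 15.8%) and RK-33 (27.1% against 18.6%) and equal to it in Combo (20.1% in each). As the exon ratio enters the share and chose the members, this is a description. AHNAK had 2.79% in soluble and 0.29% in insoluble Ctrl libraries, and AHNAK2 11.97% and 0.62%. MDN1 went from 26.1% to 13.1% and ZZEF1 from 21.5% to 13.4%. TRIO was an exception in level: introns made up 67.0% of its counts in Ctrl soluble and 61.2% in Ctrl insoluble libraries, and 71.6% against 37.4% in NaAsO2. MAP1A had only 0 to 24 intron counts a library, so its place among the 10 in Combo rests on few reads.

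**Figure D4:**
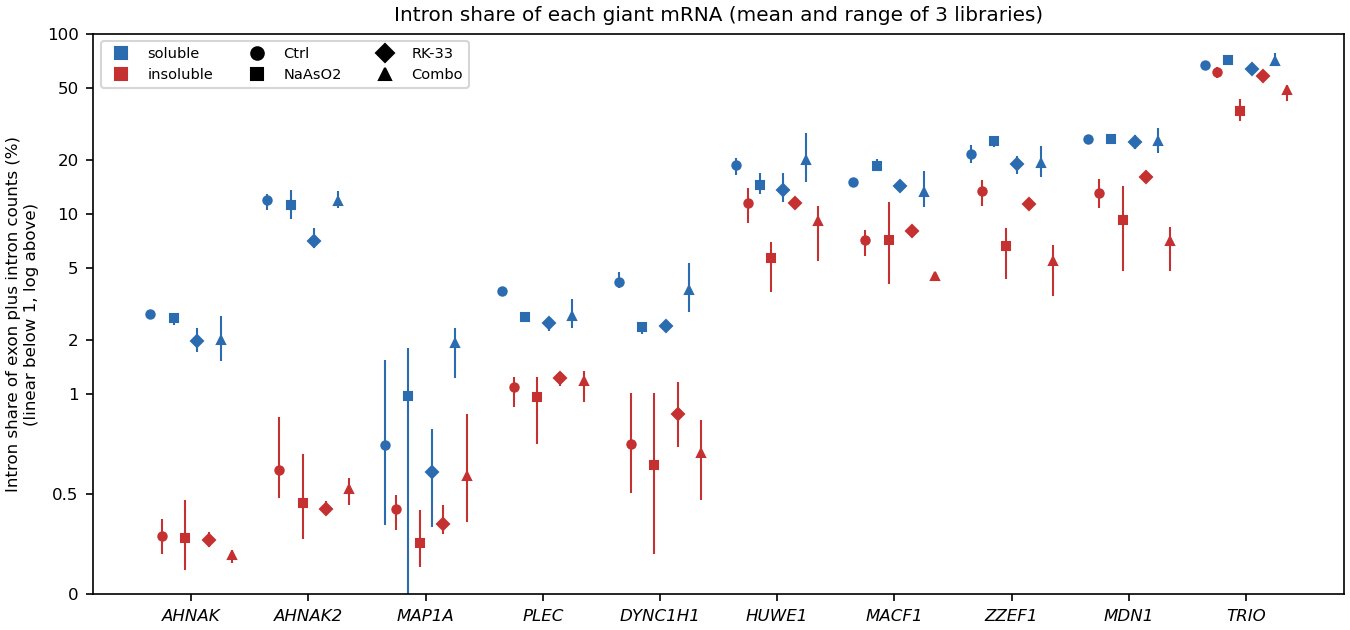
Intron share of exon plus intron counts in percent (linear below 1, logarithmic above) for each giant mRNA, as the mean and range of 3 libraries, with colour for the fraction and symbol for the treatment. Insoluble values lie below soluble ones for nearly every gene and treatment, and TRIO alone exceeds 30%.

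RNAs taken here as a nuclear list were spread over both fractions. Of 9 such RNAs 7 had reads and 6 were tested, and the log2 ratio of insoluble over soluble was above 0 for 5 of the 6 in Ctrl and for 4 in each other treatment, with medians of 0.85 in Ctrl, 0.51 in NaAsO2, 1.15 in RK-33 and 0.58 in Combo. In Ctrl it ran from -1.07 for MALAT1 to 1.84 for NEAT1. The summed level, in contrast, was 15042 to 21229 CPM in Ctrl soluble and 10475 to 14232 CPM in Ctrl insoluble libraries, and 11155 to 13598 against 3995 to 6387 CPM in NaAsO2. The largest parts of the sum were MALAT1 and RMRP, at 10861 to 16371 and 3433 to 3980 CPM in Ctrl soluble libraries. In NaAsO2 soluble libraries they held 5454 to 7777 and 5208 to 6324 CPM, so the sum mostly follows these RNAs. MEG3 did not exceed 0.12 CPM, and RPPH1 and RN7SK had no reads. Their part in the members' values was not tested.

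Arsenite lowered 3 giant mRNAs in the soluble fraction and raised 2 by edgeR's quasi-likelihood test, with p-values adjusted over all tested genes. The question here is how the stressor alone changed each fraction. DYNC1H1, at the CPM values given above, rose 2.02-fold (log2 1.02 ± 0.14, SE, adjusted p = 8.4e-05). HUWE1 rose from 405, 411 and 406 CPM to 586, 556 and 533 CPM (log2 0.45 ± 0.13, adjusted p = 0.024), a call that was lost with any 1 of the 6 libraries left out, at adjusted p of 0.055 to 0.18. MAP1A fell from 53.7, 51.3 and 48.1 CPM to 38.2, 38.2 and 30.8 CPM (log2 -0.52 ± 0.12, adjusted p = 0.0053). ZZEF1 fell from 39.1, 38.0 and 37.3 CPM to 30.7, 30.9 and 25.1 CPM (log2 -0.40 ± 0.12, adjusted p = 0.026), and TRIO from 363, 328 and 360 CPM to 287, 285 and 263 CPM (log2 -0.33 ± 0.11, adjusted p = 0.048). In none of these 5 did the groups overlap. Of all tested genes 6.25% were called higher and 6.99% lower. With no filter on low counts only DYNC1H1 was called. TRIO lost its call without NaAsO2 replicate 2 or 3 or Ctrl replicate 1 or 3 (adjusted p of 0.084 to 0.17), and ZZEF1 without NaAsO2 replicate 3 or any 1 of the Ctrl libraries (0.053 to 0.10). The soluble fraction fitted without the other groups gave 9 calls in place of 5, adding AHNAK2, MACF1, PLEC and MDN1.

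In the insoluble fraction arsenite raised 5 members, where 21.2% of all tested genes were called higher and 21.8% lower. None was lower with edgeR or DESeq2, and 0 were lower at an unadjusted p under 0.05. MAP1A rose from 152, 174 and 180 CPM to 296, 305 and 282 CPM, 1.75-fold (log2 0.81 ± 0.11, adjusted p = 1.1e-05). ZZEF1 went from 136, 141 and 166 CPM to 193, 204 and 218 CPM (log2 0.47 ± 0.11, adjusted p = 0.0019). TRIO went from 1343, 1456 and 1612 CPM to 1885, 1900 and 2049 CPM (log2 0.40 ± 0.11, adjusted p = 0.0054). For these genes and for AHNAK2 (log2 0.55 ± 0.18, adjusted p = 0.015) every NaAsO2 library lay above every Ctrl library. PLEC was the fifth (log2 0.66 ± 0.25, adjusted p = 0.036), but its groups overlapped, with 10618, 9984 and 11973 CPM in Ctrl against 11402, 12248 and 27852 CPM, and without NaAsO2 replicate 3 its value was 0.19 at adjusted p = 0.40. It also lost its call without Ctrl replicate 1 (adjusted p = 0.090) or 2 (0.11). Without that library HUWE1, otherwise at 0.18, was called at 0.36 (adjusted p = 0.025), and 5 members were again called. The call of AHNAK2 was lost without Ctrl replicate 1, at adjusted p = 0.073. Fitted on these 6 libraries alone, only MAP1A kept its call. AHNAK (0.17 ± 0.17), DYNC1H1 (0.11 ± 0.14), MACF1 (-0.04 ± 0.15) and MDN1 (-0.10 ± 0.13) did not pass the test.

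MAP1A, TRIO and ZZEF1 therefore had every NaAsO2 library below every Ctrl library in the soluble fraction and above it in the insoluble one, a pattern shared by 3.44% of all tested genes. As the NaAsO2 ratio entered the choice of the members, the pattern is a description. Counting exon and intron reads together removed it for TRIO, whose values became 0.02 (soluble) and -0.01 (insoluble), each with an adjusted p of 0.95.

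By edgeR, RK-33 alone raised 1 member in the soluble fraction and 3 in the insoluble one. With edgeR and DESeq2 none was lower in either, and 0 were at an unadjusted p under 0.05. In the soluble fraction DYNC1H1 rose from 205, 194 and 191 CPM to 306, 323 and 268 CPM (log2 0.60 ± 0.14, adjusted p = 0.013), the only member called where 2.07% of all genes were called higher and 3.22% lower. Its call was lost without RK-33 replicate 2 or any 1 of the Ctrl libraries, at adjusted p of 0.050 to 0.084. PLEC had the larger value, 0.82 ± 0.25, without overlap between the groups, but an adjusted p of 0.056, which came under 0.05 with 6 other settings. In the insoluble fraction TRIO rose from 1343, 1456 and 1612 CPM to 2071, 2414 and 1995 CPM (log2 0.55 ± 0.11, adjusted p = 0.0013). ZZEF1 rose to 212, 228 and 202 CPM from the Ctrl values above (log2 0.54 ± 0.11, adjusted p = 0.0021), and MAP1A to 227, 233 and 197 CPM (log2 0.38 ± 0.11, adjusted p = 0.024). These are the 3 members that NaAsO2 raised in this fraction with the smallest adjusted p, but the contrasts share the Ctrl libraries. Of all genes 5.68% were called higher and 8.16% lower. The MAP1A call was lost without RK-33 replicate 1 or 2 or Ctrl replicate 1 or 2, at adjusted p of 0.055 to 0.13.

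Set against NaAsO2 alone, RK-33 before NaAsO2 raised 6 of the 10 members in the soluble fraction, where 4.74% of all tested genes were called higher and 1.64% lower. All 10 fold changes were above 0, with a median of 0.56 on the log2 scale beside an all-gene median of -0.04, so 0 were lower by edgeR, by DESeq2 or at an unadjusted p under 0.05. AHNAK2 rose from 80.0, 86.3 and 64.1 CPM to 131, 163 and 127 CPM, 1.83-fold (log2 0.87 ± 0.18, adjusted p = 0.0047). TRIO rose from 287, 285 and 263 CPM to 474, 476 and 442 CPM (log2 0.74 ± 0.11, adjusted p = 0.00016), and AHNAK from 932, 926 and 745 CPM to 1336, 1654 and 1344 CPM (log2 0.74 ± 0.17, adjusted p = 0.010). MACF1 stood at 355, 368 and 294 CPM before and 520, 604 and 519 CPM after (log2 0.69 ± 0.15, adjusted p = 0.0053). ZZEF1 (0.59 ± 0.12, adjusted p = 0.0030) and MDN1 (0.48 ± 0.13, adjusted p = 0.031) completed the set. In all 6 the groups did not overlap. MAP1A, at 38.2, 38.2 and 30.8 CPM against 37.8, 40.8 and 34.6 CPM, did overlap (0.08 ± 0.12, adjusted p = 0.72). The AHNAK call was lost without NaAsO2 replicate 3 (adjusted p = 0.063) and that of MDN1 without Combo replicate 2 or any 1 of the NaAsO2 libraries, at adjusted p of 0.064 to 0.088. The RNAs of the nuclear list mostly moved the same way in this contrast. Their sum went from 11155 to 13598 CPM in NaAsO2 to 14899 to 18606 CPM in Combo soluble libraries, without overlap. Of the 6 tested 2 were called higher, with a median of 0.49, and RMRP was lowest at -0.08. Their part in the result was not tested.

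In the insoluble fraction the same contrast split the members. The sum of the RNAs on the nuclear list went from 3995 to 6387 CPM up to 7994 to 10957 CPM. Of the 6 tested 5 were called higher, with a median of 0.69. The part of these RNAs was not tested here either. AHNAK rose from 13336, 14941 and 17196 CPM to 18897, 20810 and 26372 CPM (log2 0.54 ± 0.17, adjusted p = 0.037) and MACF1 from 2247, 2496 and 1806 CPM to 2861, 3158 and 3339 CPM (log2 0.51 ± 0.15, adjusted p = 0.024), both without overlap. MAP1A fell from 296, 305 and 282 CPM to 198, 238 and 229 CPM (log2 -0.41 ± 0.11, adjusted p = 0.019), also without overlap. PLEC fell from 11402, 12248 and 27852 CPM to 7387, 7739 and 13114 CPM (log2 -0.87 ± 0.25, adjusted p = 0.026), with overlap. Of all genes 6.80% were called higher and 6.83% lower. Without NaAsO2 replicate 3, PLEC stood at -0.38 (adjusted p = 0.16) and MACF1 at 0.34 (adjusted p = 0.12), while MAP1A lost its call only without Combo replicate 1 (-0.33, adjusted p = 0.12). PLEC also lost it without Combo replicate 1 or 2, MACF1 without Combo replicate 2 or 3, and AHNAK without Combo replicate 2 or 3 or NaAsO2 replicate 1 or 2, at adjusted p of 0.057 to 0.14 over these. Fitted on the 6 libraries alone, none of the 4 was called, at adjusted p of 0.48 to 0.52. The fit without NaAsO2 replicate 3 kept Combo replicate 3, the highest Combo library for PLEC. Deviations of these libraries from their groups went together (r = 0.821). At each replicate number PLEC was lower in Combo than in NaAsO2, and with the number as a block it kept its call. The labels do not say that equal numbers mark a shared origin.

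Against RK-33 alone, adding NaAsO2 raised DYNC1H1 in the soluble fraction, from 306, 323 and 268 CPM to 510, 539 and 366 CPM (log2 0.66 ± 0.14, adjusted p = 0.0079), and lowered MAP1A, from 59.6, 62.5 and 53.7 CPM to 37.8, 40.8 and 34.6 CPM (log2 -0.64 ± 0.11, adjusted p = 0.0015). In both genes the groups did not overlap. Of all genes 2.88% were called higher and 0.719% lower. The DYNC1H1 call was lost without Combo replicate 1 or 2 or RK-33 replicate 3, at adjusted p of 0.052 to 0.080. Thus arsenite raised soluble DYNC1H1 and lowered soluble MAP1A whether RK-33 was absent or present, in contrasts that share no library. In the insoluble fraction no member was called with edgeR, where 4.11% of all genes were higher and 2.95% lower. AHNAK came nearest, from 15630, 17360 and 12663 CPM to 18897, 20810 and 26372 CPM without overlap (log2 0.53 ± 0.17, adjusted p = 0.059), and was called with DESeq2 (adjusted p = 0.025). It was the 1 member at an unadjusted p under 0.05.

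**Figure D5:**
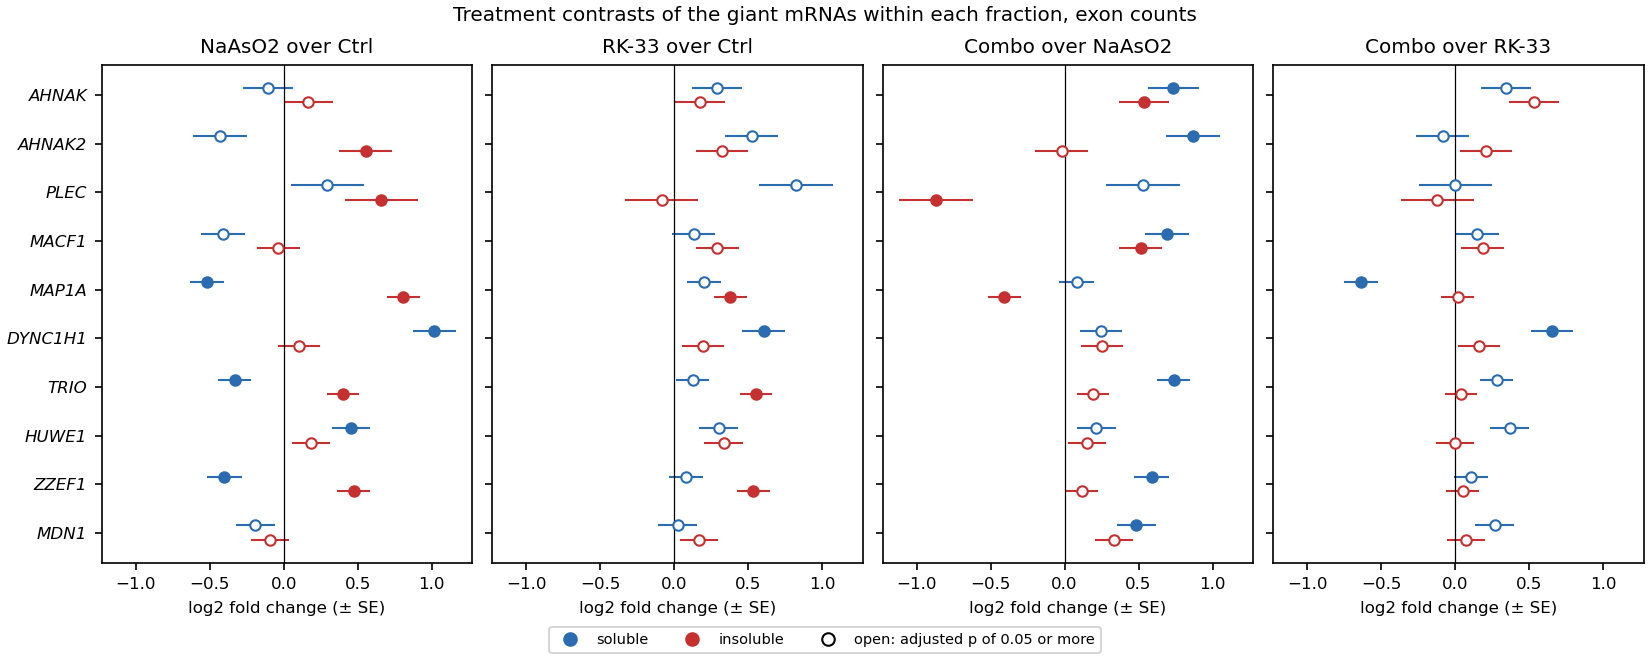
Log2 fold change with its SE of each giant mRNA for 4 treatment contrasts, in the soluble fraction (blue) and the insoluble fraction (red), on exon counts; filled points had an adjusted p under 0.05. For Combo over NaAsO2 all soluble values lie above 0, and for NaAsO2 over Ctrl the MAP1A, TRIO and ZZEF1 values lie on opposite sides of 0.

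Intron counts were tested between NaAsO2 and Ctrl and between Combo and NaAsO2, and with edgeR members were called in the insoluble fraction of each. For RK-33 against Ctrl and Combo against RK-33 introns were not tested. Between NaAsO2 and Ctrl, PLEC (log2 1.31 ± 0.25, adjusted p = 0.00035), AHNAK (0.89 ± 0.22, adjusted p = 0.0031), AHNAK2 (0.88 ± 0.24, adjusted p = 0.0070) and MACF1 (0.65 ± 0.14, adjusted p = 0.0010) were higher, and 0 were lower with edgeR, with DESeq2 or at an unadjusted p under 0.05, where 18.8% of 17406 genes were called higher and 12.6% lower. The PLEC libraries held 266, 250 and 267 CPM in Ctrl and 378, 469 and 1094 CPM in NaAsO2, and the AHNAK libraries 90.7, 84.3 and 73.3 CPM against 113, 92.6 and 255 CPM. Replicate 3 was the highest NaAsO2 library in all 4 genes, and without it AHNAK (0.32, adjusted p = 0.11) and AHNAK2 (0.51, adjusted p = 0.10) were not called, which left PLEC at 0.70 (adjusted p = 0.0049) and MACF1 at 0.45 (adjusted p = 0.0099). In the soluble fraction no member passed with edgeR, 3 had an unadjusted p under 0.05, and 1 passed with DESeq2, TRIO (0.35, adjusted p = 0.048), while 1.84% of genes were called higher and 3.37% lower.

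Between Combo and NaAsO2, insoluble introns of HUWE1 (log2 0.57 ± 0.14, adjusted p = 0.0034) and TRIO (0.54 ± 0.15, adjusted p = 0.0077) were higher and those of PLEC (-0.92 ± 0.25, adjusted p = 0.0070) and ZZEF1 (-0.48 ± 0.15, adjusted p = 0.019) lower, where 13.1% of genes were called higher and 13.5% lower. TRIO introns went from 4919, 4720 and 3579 CPM to 6798, 6550 and 5919 CPM, without overlap. Without NaAsO2 replicate 3 the values of PLEC (-0.31, adjusted p = 0.22) and ZZEF1 (-0.35, adjusted p = 0.087) were not called. That fit kept Combo replicate 3, the highest Combo library for PLEC introns, at 471 CPM against 284 and 268 CPM. PLEC also lost its call without Combo replicate 2 (adjusted p = 0.052), and ZZEF1 without Combo replicate 1 or 3 (adjusted p = 0.051 and 0.074). In the soluble fraction no member was called with edgeR, 4 had an unadjusted p under 0.05, and 2 were called with DESeq2, HUWE1 and TRIO, where 9.57% of genes were called higher and 4.83% lower.

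Genes that work with the members, or resemble them, were counted in the same fits. Of 68 other genes known for very long mRNAs, all tested, every one had an exon log2 ratio above 0 in each treatment. Medians were 1.95, 1.86, 1.95 and 1.73 in Ctrl, NaAsO2, RK-33 and Combo, with a range in Ctrl from 0.67 (NAV1) to 3.35 (PRKDC). The list was chosen with earlier results of these data known, so these ratios are a description. Of the 2065 long genes above, 77.2%, 71.3%, 80.2% and 77.0% had a ratio above 0 in that order. Between Combo and NaAsO2 in the soluble fraction 20 of the 68 were called higher and none lower by edgeR, with a median of 0.34, where 4.74% of all tested genes were higher and 1.64% lower. Between NaAsO2 and Ctrl in the insoluble fraction 15 were higher and 12 lower, against 21.2% and 21.8% of all tested genes, from -1.20 (FN1) to 0.97 (TNRC18). Of 9 tested plakins and spectrin-repeat linkers, the relatives of PLEC and MACF1, the Ctrl ratio had a median of 2.31 and ran from 1.45 (PPL) to 3.10 (EPPK1), and 2 were higher and none lower between Combo and NaAsO2 in the soluble fraction, against the same 4.74% and 1.64%.

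The partners of DYNC1H1 did not share its place. The 23 other genes of dynein, dynactin and their regulators had a median ratio of -0.36 in Ctrl, from -1.82 (DYNLL1, a light chain) to 1.63 (DCTN1, the large dynactin subunit). In the soluble fraction 4 of them rose and 1 fell with NaAsO2, where 6.25% of all tested genes rose and 6.99% fell, with the highest value for DCTN1 (0.92) and the lowest for DYNC1LI2 (-0.56). The 11 factors that work with MDN1 on the large ribosomal subunit had a median ratio of 0.36 in Ctrl, from -0.26 (WDR12) to 0.63 (BOP1). The 3 tested proteins that bind AHNAK ran from -1.70 (S100A10) to 2.01 (DYSF) in Ctrl.

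Among 14 other microtubule-associated genes, listed beside MAP1A by function, the median ratio was 0.63 in Ctrl, with CKAP5 at 1.99 and MAPRE1 at -0.79. Of these, 4 rose and 1 fell with NaAsO2 in the insoluble fraction, where 21.2% of all tested genes rose and 21.8% fell. Of 24 other exchange factors of the family of TRIO, 14 rose and none fell with NaAsO2 in the insoluble fraction, against the same background, with a median of 0.57 beside an all-gene median of -0.02, and ARHGEF40 highest at 1.06. The 20 tested HECT ligases beside HUWE1 had a median ratio of 0.63 in Ctrl and 0.83 in NaAsO2, with HERC2 highest in both at 2.78 and 3.54, and 8 rose and 1 fell with NaAsO2 in the insoluble fraction, again against 21.2% and 21.8%.

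Among the genes whose profile over the 8 group means was most like the mean of the members, out of 10260 genes of at least 10 CPM, were HERC2 (Pearson r = 0.999), LAMA1 (0.998), VPS13D (0.997) and RNF213 (0.997). The members themselves had r between 0.972 for MAP1A and 0.998 for AHNAK2. Such a value is dominated by the difference between fractions and is a description over 8 means. HERC2 had ratios of 2.78, 3.54, 2.88 and 2.87 in Ctrl, NaAsO2, RK-33 and Combo.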

How the data were processed

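The authors aligned reads with STAR 2.7.2b to GRCh38.p13, and deposited raw counts per gene made with featureCounts on exons and on introns, summed by gene name and without a strand setting although the library kit was directional, besides back-splice and linear read counts of circular RNA sites. Reads from a member and a gene overlapping it (such as PLD4 for AHNAK2 or MDN1-AS1 for MDN1) therefore cannot be told apart where annotated parts overlap. Spike-in RNA was added but has 0 entries in the tables used here, so no level is per cell.

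From these counts, those genes whose mean over libraries reached 1 CPM were fitted in edgeR 4.0.16 (R 4.3.3, TMM factors, robust quasi-likelihood) over all 24 libraries in 8 groups. P-values were adjusted by Benjamini-Hochberg over all tested genes of a contrast and called under 0.05 with no fold limit. DESeq2 1.42.0 was an alternative. CPM were computed with TMM factors, and each SE is the log2 fold change over the root of its F statistic. Transcript models came from GENCODE 44 and sequences from GRCh38. Per the methods both fractions were separated from a lysate; the labels give numbers without saying that the same number marks the same lysate. Across treatments, same-numbered libraries deviated together only between Combo and NaAsO2 in the insoluble fraction (r of 0.664 to 0.821), and the blocked fit there changed no call. The labels give only replicate numbers, so p-values measure the spread between these libraries. No pair of replicates agreed within sampling noise (chi-square per degree of freedom at least 2.39). All 10 members are named, other list genes only as the highest or lowest of their list, with some items not reported here, and the members and lists were chosen with earlier results of these data known.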

Additional observations from a re-analysis of the deposited data

Results flagged for a closer look

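In 3 members the exon level moved in opposite directions in the fractions between Ctrl and NaAsO2, with every NaAsO2 library below every Ctrl library in the soluble fraction and above every Ctrl library in the insoluble one. The difference between the insoluble and the soluble log2 fold change was 1.32 for MAP1A, 0.87 for ZZEF1 and 0.73 for TRIO. The difference was not tested, because it is the change of the ratio by which the genes were picked. Of all tested genes 3.44% showed this pattern. Groups of 3 libraries are too small for the test of single distant values, so none was made for PLEC in the NaAsO2 insoluble group.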

How the results depend on the processing

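Of the 34 member values called on exon or intron counts, 378 of their 502 values under other settings stayed on the same side of the threshold with the same sign, 122 lost the call and 2 turned, and 8 calls held under every setting but the fold limit. The 2 that turned are TRIO between NaAsO2 and Ctrl with exon and intron counts added together, at 0.0207 (soluble) and -0.0133 (insoluble). Members called on exon counts, for NaAsO2 against Ctrl, RK-33 against Ctrl, Combo against NaAsO2 and Combo against RK-33 in that order, were 5, 1, 6 and 2 in the soluble and 5, 3, 4 and 0 in the insoluble fraction. With the compared groups fitted alone they were 9 and 4 for the first soluble pair of contrasts, and 1, 6 and 0 for the first 3 insoluble ones. A log2 fold limit of 1 left 1 soluble call (NaAsO2 against Ctrl) and 0 elsewhere on exons. With no filter on low counts there were 1 and 3 for the first soluble contrasts, and 2 and 1 for Combo against NaAsO2 and RK-33 in the insoluble fraction. Exon plus intron counts gave 2, 2 and 1 for NaAsO2 against Ctrl (soluble) and Combo against NaAsO2 and RK-33 (insoluble). For RK-33 against Ctrl (soluble), library size alone, the likelihood ratio test and DESeq2 each gave 2, and for Combo against RK-33 (insoluble) the latter tests gave 1. On introns, DESeq2 gave 1 (NaAsO2 against Ctrl) and 2 (Combo against NaAsO2) soluble calls in place of 0, the groups alone 2 and 2, no filter 1 for the second, and in the insoluble fraction the groups alone gave 0 and 0 in place of 4 and 4 and the fold limit 1 and 0. The cause was not tested.

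Leaving out 1 library gave 2 to 4, 0 to 2, 4 to 6 and 1 to 2 soluble exon calls and 3 to 5, 2 to 3, 1 to 3 and 0 insoluble ones, and on introns 0 soluble calls and 2 to 5 and 2 to 6 insoluble ones. The exon fraction medians then ran from 2.37 to 2.61 (Ctrl), 2.83 to 2.93 (NaAsO2), 2.39 to 2.60 (RK-33) and 2.36 to 2.57 (Combo), and those of introns from 0.39 to 0.52, 0.29 to 0.60, 0.56 to 0.72 and 0.29 to 0.38. With exon plus intron counts the exon medians were 2.11 (Ctrl), 2.45 (NaAsO2) and 2.07 (RK-33). With library size alone the intron medians were 0.0631 (Ctrl), 0.21 (RK-33) and 0.0604 (Combo). Per kilobase the median intron share was 3.27% in Ctrl soluble and 1.08% in Ctrl insoluble libraries in place of 13.5% and 4.11%. Library size alone moved the all-gene exon median by -0.18 for NaAsO2 against Ctrl and 0.11 for Combo against NaAsO2, both soluble. With the replicate number as a block, RK-33 against Ctrl (soluble) had 2 calls in place of 1, adding PLEC, and NaAsO2 against Ctrl (soluble) 4 in place of 5, without TRIO; no other call of a member changed. Same-numbered libraries deviated together in 1 of 8 treatment contrasts.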
